A study of Mus musculus with 6 samples.

Results

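SOX9 is a transcription factor of the SRY-related high-mobility-group (HMG) box family, and cells carrying a Sox9 vector were compared here with cells carrying the empty vector. All groups were made from an immortalized monoclonal line of mouse mesenchymal stem cells with floxed, undeleted Dicer alleles (Dicer WT, Dicer f/f), grown in Alpha-MEM with 10% fetal bovine serum and harvested before confluence. The comparison holds 2 of the 6 samples of the series, the empty vector and the Sox9 vector, and each deposited group mean was resolved into 2 libraries, so 4 libraries were compared. A further pair of groups, with a Pbx3 or a Tead4 vector, share the same control and appear only beside the Sox9 values. In the labels the cells are termed mesenchymal stem cells in one place and fibroblasts in another. The labels name the starting line as 1 clone, and how long the vectors were carried and which share of cells took them up is not given in the sources used here. Genes were kept where the mean over both groups was at least 50 normalised reads, which left 9698 genes in exonic and 8361 in intronic reads. Sgsh lay just above this minimum in exonic reads, at 50.04, and Zmynd17 just below it, at 49.8.

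SOX9 is the master regulator of cartilage. In chondrocyte precursors it binds pairs of SOX sites in enhancers of the genes for cartilage collagens and proteoglycans, and it switches on Sox5 and Sox6, whose proteins sit beside it on the same genes. It is also used outside the skeleton, in Sertoli cells of the testis, in the neural crest and in glia, where its close relatives SOX8 and SOX10 act with it. Mesenchymal stem cells can form cartilage, bone or fat, and SOX9 is the factor tied to the first of these. Exonic reads come mostly from spliced RNA, whereas intronic reads come mostly from unspliced RNA still close to the gene.

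The libraries held 11011360 and 8580445 exonic reads for vector and 7767701 and 6130267 for Sox9. Intronic reads numbered 4389084 and 3633157 for vector and 3720908 and 3156973 for Sox9, which is 28.5% to 29.7% of gene reads in vector and 32.4% to 34.0% in Sox9 libraries. Library 1 is the library of a group with the larger size factor. The 2 libraries of a group differed beyond counting error, most in vector exonic reads, with a median chi-square of 5.16 per gene against 2.38 for Sox9. Of 19 mesenchymal stromal markers 16 were measured, their summed exonic level was 50625 and 52075 in vector and 63002 and 53123 in Sox9 libraries, and 0 passed the test. Of the blood, endothelial and epithelial markers, with 14, 12 and 12 genes in the exonic table, 0 lay above the minimum, and their summed levels were at most 37.8 in any library. In bulk RNA, fewer cells of a type and less RNA per cell cannot be told apart. Genes of 1 exon are mostly listed at 0 in these tables, 840 of 859 against 4471 of 17697 genes with several exons, so Sox4, Sox11, Jun and the histone genes, listed at 0, cannot be judged here.

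The vector gene was read first. Sox9 itself had 116 and 47.5 normalised exonic reads in the vector libraries and 179 and 186 in the Sox9 libraries. The groups did not overlap, but the vector libraries lay farther from each other than the Sox9 libraries did. The log2 change was 1.29 ± 0.39 (standard error of the limma fit, 2 libraries against 2, as for every ± below). It did not pass (limma adjusted p = 0.272, and 0.265 in the authors' deposited table). Without vector library 1 the change was 1.92 and passed limma, and without vector library 2 it was 0.66 and did not (limma adjusted p = 0.38). In intronic reads Sox9 had 7 reads in vector and 42 in Sox9 over both libraries, below the minimum mean, with an adjusted p of 0.0177 in the authors' deposited table. The exonic table gives 1 value per gene, so RNA from the vector and RNA from the cells' own gene cannot be told apart there. The words "rose", "fell" and "changed" are used only where the limma adjusted p was under 0.05.

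Of the other Sox genes, Sox6 and Sox5 stood out. Sox6, which encodes a partner of SOX9 in cartilage, had 13.8 and 7.91 normalised exonic reads in vector and 370 and 303 in Sox9 cells. It rose by 4.87 ± 0.34 in exonic reads (limma adjusted p = 0.00148) and by 4.47 ± 0.28 in intronic reads. Sox5, the third member of the cartilage trio, lay below the minimum in exonic reads, with 17.5 and 12.9 in vector and 85.4 and 59.9 in Sox9 cells. Its intronic reads were 65.0 and 86.0 in vector against 395 and 340, and it rose there by 2.28 ± 0.20 (limma adjusted p = 9.9e-04). Sox8, a close relative of Sox9, was measured at 83.6 and 59.3 in vector and 126 and 88.5 in Sox9 cells, a change of 0.58 ± 0.30 that did not pass. Sox10, the glial member of the same subgroup, was listed at 0 in all 4 libraries.

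The promoter windows of these genes show where SOX-type letters lie. Each window holds 250 bases before and 50 after a RefSeq start (GRCm38.p6), and both strands were searched for ACAAAG and ACAATG, core letters of SOX sites; ACAAAG is also the core of TCF and LEF sites. Runs of 30 bases are given 5′ to 3′ on the strand of the gene, with the matching letters in capitals, to show a match upstream of Sox5, of Sox6 and of Chl1, an adhesion gene described further on.
Sox5, chr6:143947243-143947272, minus strand, match starting 154 bases before the start: gactgaagagacACAATGgttgtgaatact
Sox6, chr7:116038840-116038869, minus strand, match starting 113 bases before the start: tttttttcaggaACAAAGggaatgtggaaa
Sox6, chr7:115995145-115995174, minus strand, match starting 76 bases before another start: gttacctcaagtACAATGatgatactttga
Chl1, chr6:103510719-103510748, plus strand, match starting 145 bases before the start: gcaaagttttctCTTTGTccctcgcttttc
Sox6 held such letters in 5 of its 6 windows. The single windows of Hapln1, Acan and Col11a1 held none, and none is given for Col2a1. Over the 44 genes that rose in exonic reads, 31 were matched to windows, and 9 of 45 windows (20%) held at least 1 match. The share was 19.1% over windows of all genes tested and 28.6% over all RefSeq windows, and without the Sox6 windows it was 4 of 39 (10.3%). For genes that rose in intronic reads it was 30 of 127 (23.6%), beside 19.1% over those tested there, and for genes that fell in exonic reads 2 of 8 (25%). Enhancers farther away were not searched.

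Cartilage matrix genes were higher in Sox9 than in vector cells. Of 36 listed genes 33 were in the exonic table, 11 passed the minimum, and 6 of these rose, namely Hapln1, Acan, Lect1, Col11a1, Col2a1 and Papss2. Of all genes tested, 0.454% rose. All 11 were higher, as were 4632 of the 9698 genes tested. Their median log2 change was 2.15, beside -0.02 over all genes tested, and without Sox9 library 2 it was 3.29. In intronic reads 9 passed the minimum and Hapln1, Col11a1, Col2a1, Papss2 and Xylt1 (5) rose, with a median of 1.61, where 1.45% of all genes tested rose. The list passes the minimum partly through its high level in Sox9 cells, so these medians describe the measured members only.

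**Figure D1:**
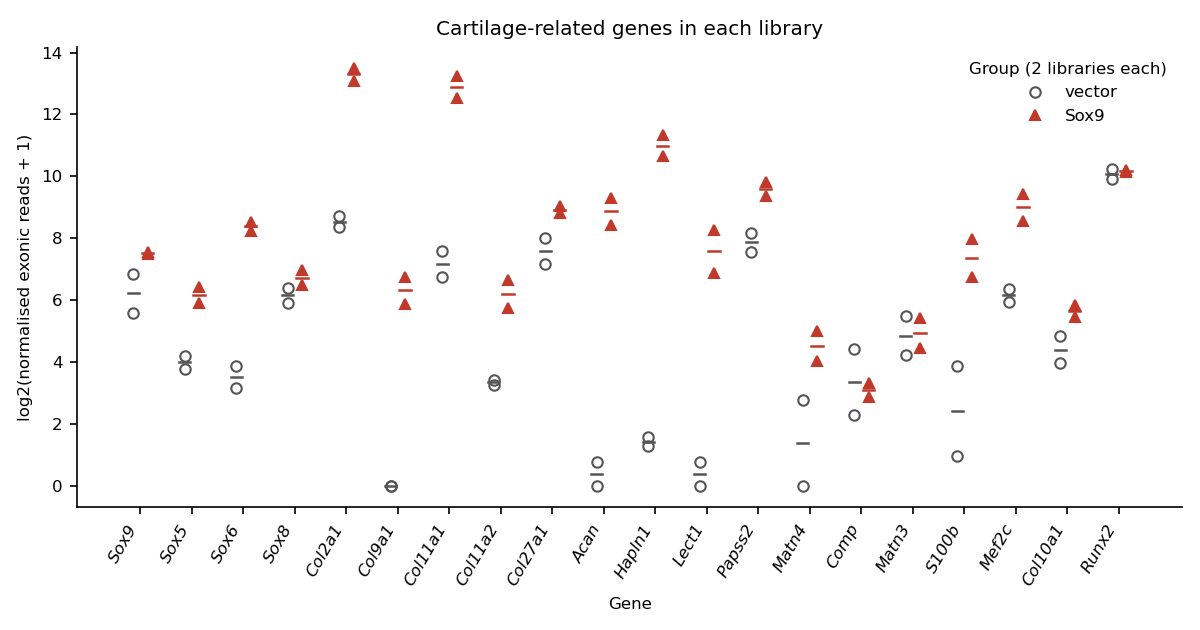
Each point is 1 library, with vector as open circles and Sox9 as filled triangles, on a scale of log2(normalised exonic reads + 1); short bars are means of 2 libraries. Hapln1, Acan, Lect1 and Col9a1 lie near 0 in vector and far above it in Sox9 cells, while the groups overlap for Runx2, Comp and Matn3.

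The collagens of cartilage fibrils led by level. Col2a1, the main collagen of cartilage, had 423 and 326 normalised exonic reads in vector and 11604 and 8752 in Sox9 cells. It was thus already measured in vector cells, and it rose by 4.76 ± 0.21 (limma adjusted p = 2.3e-04). Col11a1, a minor collagen inside the type II fibril, had 193 and 106 in vector and 9727 and 5886 in Sox9 cells, and rose by 5.72 ± 0.33. Col9a1, of the type IX collagen on the fibril surface, had 0 reads in vector and 146 in Sox9 over both libraries. Taking 3 reads in the whole vector group as the floor, it was at least 68.1-fold higher, with an adjusted p of 3.4e-06 in the authors' deposited table. Its partner chains Col9a2, with 2 and 10 reads, and Col9a3, with 2 and 4, stayed near the floor in both groups. Col11a2 had 22 reads in vector and 134 in Sox9 cells, with an adjusted p of 0.0448 in the authors' deposited table. Col27a1, a collagen of growth plate cartilage, had 254 and 142 in vector and 528 and 450 in Sox9 cells, a change of 1.35 ± 0.28 that did not pass limma (adjusted p = 0.122; 0.00354 in the authors' deposited table).

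Hapln1, Acan and Lect1 had few or no reads in vector cells. Hapln1, whose link protein fixes aggrecan to hyaluronan, had 1.45 and 1.98 normalised exonic reads in vector and 2611 and 1599 in Sox9 cells. It had the highest exonic change of all genes tested, 9.56 ± 0.32 (limma adjusted p = 5.7e-05), and it rose by 6.92 ± 0.35 in intronic reads. Acan, which encodes aggrecan, had 0.727 and 0 in vector and 632 and 346 in Sox9 cells. From 1 read in vector to 858 in Sox9 cells, the ratio per size factor was 1201, with a 95% exact counting interval of 215 to 47509, and the fitted rise was 8.48 ± 0.52. Lect1, which encodes the vessel-repelling protein chondromodulin, went from 1 to 378 reads and rose by 7.18 ± 0.67. Without Sox9 library 1 its change was 6.49 and did not pass (limma adjusted p = 0.0816). Acan and Lect1 were thus measured almost wholly in the Sox9 libraries, and their fitted change depends on the pseudocount of 1.

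Some genes that build and sulfate the glycosaminoglycan chains rose and others did not pass. Papss2, which makes the sulfate donor, had 290 and 188 normalised exonic reads in vector and 893 and 665 in Sox9 cells, and rose by 1.72 ± 0.25 (limma adjusted p = 0.0394). Slc26a2, the sulfate importer of chondrocytes, went from 279 and 210 to 818 and 607 and rose by 1.54 ± 0.22. The chain starter Xylt1 rose in intronic reads by 1.55 ± 0.15, and in exonic reads its change was 1.97 ± 0.34 with a limma adjusted p of 0.0722 (2.8e-04 in the authors' deposited table). Csgalnact1 and Chsy3, enzymes of chondroitin synthesis, rose in intronic reads by 1.49 ± 0.16 and 3.14 ± 0.20; they and Slc26a2 were picked with their values in view. The chondroitin sulfotransferase Chst11, at 0.75 ± 0.20, and Wwp2, a ubiquitin ligase gene that hosts a cartilage microRNA, at 1.01 ± 0.21, did not pass limma in exonic reads, though Wwp2 had an adjusted p of 0.0128 in the authors' deposited table. The receptor Fgfr3 had 267 and 75.2 in vector and 976 and 411 in Sox9 cells. Its change of 2.15 ± 0.60 did not pass (limma adjusted p = 0.232, and 0.936 in the authors' deposited table).

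Other members of the list stayed low. Comp, a pentameric matrix protein, had 32 exonic reads in vector and 13 in Sox9 cells, and Matn3 had 78 and 55. Matn4 had 8 and 41, a ratio per size factor of 7.18 with a 95% exact counting interval of 3.32 to 17.7, and Comp had a ratio of 0.569 with an interval of 0.274 to 1.11. In the authors' deposited table the adjusted p of Matn4 was 0.316. Matn1, Epyc and Chad were at 0 in all 4 libraries, and Ucma had 0 and 4 reads.

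Regulators of cartilage other than Sox6 did not pass in exonic reads. Of 12 measured regulators 1 rose, with a median of 0.40, and of all genes tested 0.454% rose in exonic reads. Sox6 and Sox5 (2) rose in intronic reads, where 1.45% of all genes tested rose. Genes of hypertrophic cartilage, the late stage that precedes bone, numbered 11 measured, of which Mef2c rose. Mef2c, a factor of chondrocyte hypertrophy and of muscle, had 81.4 and 61.3 normalised exonic reads in vector and 691 and 379 in Sox9 cells, a rise of 2.84 ± 0.31 (limma adjusted p = 0.0105). The hypertrophic collagen Col10a1 had 27.6 and 14.8 in vector and 56.6 and 43.0 in Sox9 cells, below the minimum. The channel gene Panx3, at 1.80 ± 0.56, and the collagenase Mmp13, at 0.87 ± 1.16, did not pass. The list median was 0.37.

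Markers of the other fates of these cells did not pass. Of 12 measured osteoblast markers 0 rose or fell, with a median of 0.38 that was -0.41 without vector library 2. Runx2, which starts bone formation, had 973 and 1215 normalised exonic reads in vector and 1135 and 1181 in Sox9 cells. The bone factor Sp7 stood at 0.46 ± 0.34 and the bone sialoprotein gene Ibsp at -0.86 ± 0.75. Of 8 adipocyte markers 0 passed, with a median of 0.04 and the fat regulator Pparg at -0.26 ± 0.16. Of 8 tendon genes 0 passed, with a median of 0.07 that was -0.49 without vector library 2 and 0.605 without vector library 1. Fmod, a collagen-binding proteoglycan, was the farthest of these, at 2.36 ± 0.40 (limma adjusted p = 0.0672; 8.5e-07 in the authors' deposited table). Of 15 contractile genes 0 passed, with a median of 0.27. At an unadjusted p under 0.05 these 4 lists had 2, 1, 2 and 3 members, where 13.0% of all genes tested fall.

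Prelp led the small leucine-rich proteoglycans. It had 12.4 and 3.96 normalised exonic reads in vector and 395 and 201 in Sox9 cells, a rise of 5.12 ± 0.54. Prelp was the only 1 of 7 measured members that rose, and the median was 0.96, which ranged from 0.19 without Sox9 library 1 and 0.202 without vector library 2 to 1.82 without vector library 1 and 1.77 without Sox9 library 2. Basement membrane genes numbered 13 measured, of which Lama4, Col4a5 and Nid2 (3) rose, with a median of 0.73. The share of all genes tested that rose was 0.454%. Lama4, a laminin chain, rose by 2.55 ± 0.28, Col4a5, a type IV collagen chain, by 1.86 ± 0.22 and Nid2, a nidogen, by 1.86 ± 0.28 (limma adjusted p = 0.0105, 0.0168 and 0.046). In intronic reads Lama4, Col4a5 and Col4a6 (3 of 12) rose, by 2.85 ± 0.20, 1.67 ± 0.15 and 2.57 ± 0.20. There 1.45% of all genes tested rose. Of 31 fibrillar and stromal matrix genes Col5a1, a fibril-starting collagen, rose by 1.09 ± 0.17 and 30 did not pass, with a median of 0.46. Col5a1 did not pass without either Sox9 library, at 1.04 and 1.14. Col3a1 had 1250 and 574 normalised exonic reads in vector and 6759 and 3618 in Sox9 cells. Its exonic change was 2.54 ± 0.41, with a limma adjusted p of 0.0536 (0.175 in the authors' deposited table). It rose in intronic reads, by 2.23 ± 0.43 (limma adjusted p = 0.0448; 0.22 in the authors' deposited table), where the elastic fibre protein Fbln2 fell by 1.099. Without vector library 2 neither passed, at 1.496 and -0.96.

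**Figure D2:**
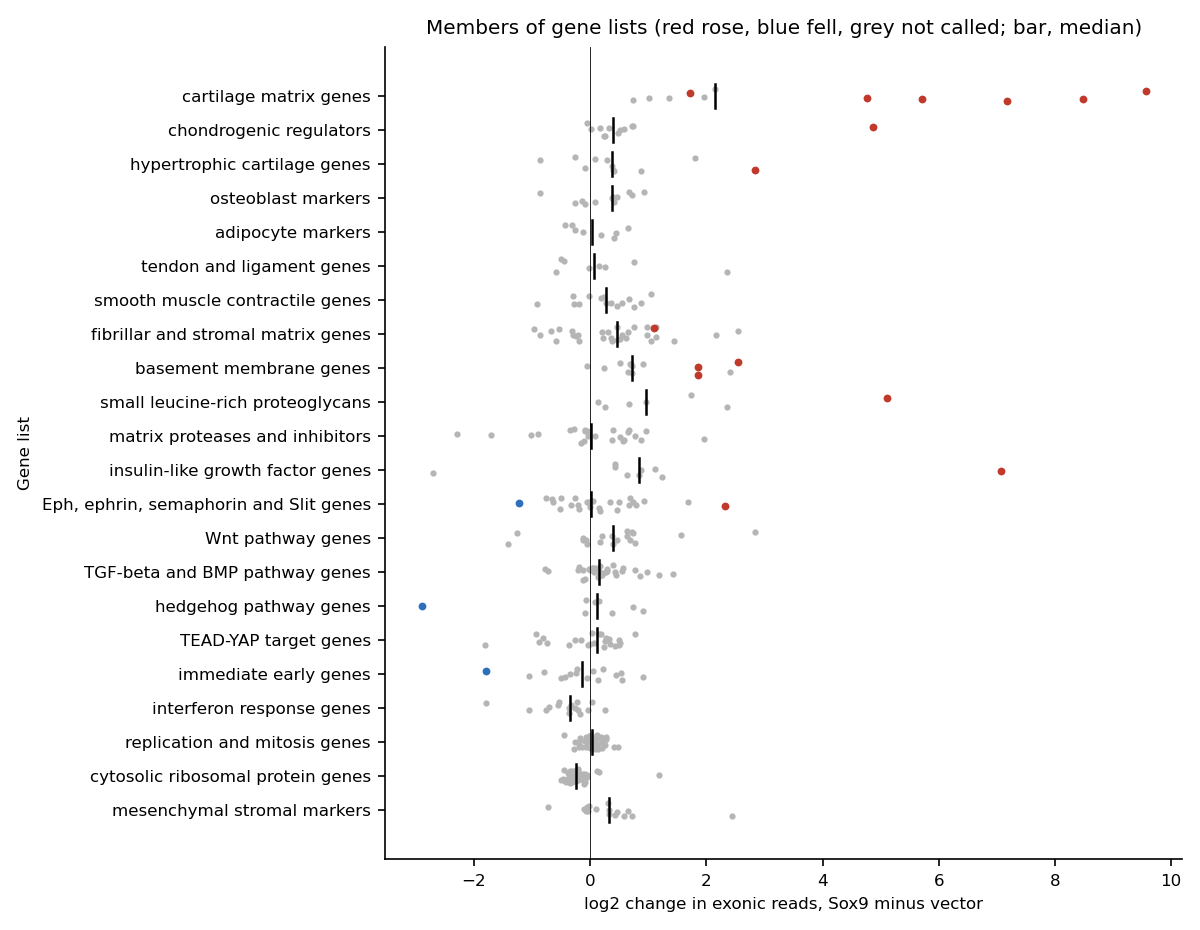
Each point is 1 measured member of a gene list at its limma log2 change in exonic reads (Sox9 minus vector), red where it rose, blue where it fell and grey where it did not pass; bars are list medians. Of the red points 6 lie in the cartilage matrix list, and most other medians lie within 1 of 0.

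Insulin-like growth factor genes had 1 of 9 members that rose in exonic reads, where 0.454% of all genes tested rose. Igfbp5, which binds the growth factors in the matrix, had 7.27 and 0 normalised exonic reads in vector and 644 and 230 in Sox9 cells, a rise of 7.07 ± 0.95 (limma adjusted p = 0.0249). Igfbp4 went the other way, with 1644 and 514 in vector and 221 and 89.8 in Sox9 cells, a change of -2.70 ± 0.57 that did not pass. The list median was 0.85. In intronic reads, where 1.45% of all genes tested rose, 2 of 9 members rose, with Igfbp5 among them at 5.47. The protease Pappa, which cuts such binding proteins, rose in intronic reads by 0.92 ± 0.16, and did not pass without Sox9 library 2, at 0.81.

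Genes of cell adhesion and axon guidance included several of the largest changes. Chl1, a neural adhesion molecule, had 0 reads in vector and 472 in Sox9 cells, at least 220.3-fold higher against the same floor of 3 reads. Its intronic reads were 15.2 and 16.6 in vector and 395 and 280 in Sox9 cells. Its relative L1cam had 82.9 and 41.5 in vector and 354 and 307 in Sox9 cells and rose by 2.47 ± 0.33. Cdh19, a cadherin of Schwann cell precursors, went from 1 to 243 exonic reads and rose by 6.62 ± 0.63, and it had the highest intronic change, 7.37 ± 0.58. Without Sox9 library 1 it did not pass, at 6.34 and 7.33. Of 27 measured Eph, ephrin, semaphorin and Slit genes, the netrin receptor Unc5c rose by 2.33 ± 0.24 and the repellent Sema3a fell by 1.22, with a median of 0.02. Of all genes tested 0.454% rose and 0.0928% fell in exonic reads. Sema3a had 2609 and 2558 normalised exonic reads in vector and 1068 and 1153 in Sox9 cells, and without Sox9 library 1 it did not pass, at -1.16. In intronic reads Sema3d, Unc5c and Epha3 (3) rose and Slit3, Sema3a and Efnb2 (3) fell, Slit3 furthest, at -2.87 ± 0.33. There 1.45% of all genes tested rose and 0.538% fell. Without Sox9 library 2 intronic Sema3a, Efnb2 and Epha3 did not pass, at -1.15, -0.72 and 0.88. Sema3a also lost its intronic call without Sox9 library 1, at -1.05, and Efnb2 without vector library 2, at -0.87.

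Of the neuronal and glial markers, 2 passed the minimum. Stmn2, a microtubule regulator of growing axons, had 1.45 and 2.97 normalised exonic reads in vector and 190 and 146 in Sox9 cells, and rose by 5.75 ± 0.48. S100b, a calcium-binding protein of both glia and cartilage, had 13.8 and 0.989 in vector and 252 and 107 in Sox9 cells. Its change of 4.93 ± 0.90 did not pass (limma adjusted p = 0.0867, and 0.0988 in the authors' deposited table). The list's summed exonic level was 74.2 and 37.6 in vector and 593 and 366 in Sox9 libraries. Its defining glial members Sox10 and Olig2 were listed at 0, and Gfap had 2 and 1 reads; Foxd3, a gene of 1 exon, cannot be judged here. The part of such cells in these results was not tested.

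The remaining genes with the highest exonic change were C1qtnf3, Gas7 and Faah. C1qtnf3, a secreted protein of cartilage and fat, went from 2 to 1212 reads, a ratio of 849 with a 95% exact counting interval of 234 to 7015. Gas7, a membrane-bending protein of neurons, went from 1 to 187 reads. Faah, which degrades fatty acid amides, had 3.63 and 0.989 normalised exonic reads in vector and 116 and 117 in Sox9 cells, and rose by 5.28 ± 0.58. Asxl3, a chromatin protein gene, had 0 exonic reads in vector and 118 in Sox9 cells, and rose in intronic reads by 5.06 ± 0.47, which did not pass without Sox9 library 1, at 5.08. Itm2a, a membrane protein of developing cartilage, rose by 2.96 ± 0.37 by limma, but its adjusted p in the authors' deposited table was 0.314. The other genes that rose ranged from 1.22 to 3.95. Among them were Cyp26b1, which degrades retinoic acid, at 3.15 ± 0.39, the chaperone Cryab at 2.75 ± 0.22 and Gpr126, an adhesion receptor of cartilage and Schwann cells, at 2.66 ± 0.21. These 3 were picked with their values in view.

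Few genes fell in exonic reads, 9 of 9698 (0.0928%). Ms4a4d, a membrane-spanning protein gene, had 214 and 89.99 normalised reads in vector and 10.7 and 3.91 in Sox9 cells, at -4.21 ± 0.59 (limma adjusted p = 0.0303; 0.123 in the authors' deposited table). Eya2, a transcriptional co-activator, had 166 and 113 in vector and 14.95 and 15.6 in Sox9 cells, at -3.08 ± 0.34. Hhip, which traps hedgehog ligands, had 266 and 198 in vector and 42.7 and 20.8 in Sox9 cells, at -2.90 ± 0.37 (limma adjusted p = 0.0204). It was the only 1 of 8 measured hedgehog genes that changed. The receptor and target Ptch1 stood at 0.91 ± 0.19, and the list median was 0.13. The sodium channel gene Scn3a fell by 2.32, the zinc finger gene Mecom by 2.02, the LIM protein gene Fhl1 by 1.88, the growth factor gene Hbegf by 1.80 and Sdpr, which encodes a caveola coat protein, by 1.77. Fhl1 had 2102 and 2178 in vector and 574 and 588 in Sox9 cells, and its libraries agreed closely within each group.

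A few genes of acute growth factor response and of the YAP targets fell. Of 24 TEAD-YAP targets 0 changed in exonic reads, with a median of 0.12, and of 21 in intronic reads Ctgf, Edn1 and Ankrd1 (3) fell, with a median of -0.02, where 0.538% of all genes tested fell. Ctgf, a matricellular protein, had 3166 and 6308 normalised exonic reads in vector and 956 and 1694 in Sox9 cells, at -1.81 ± 0.37 (limma adjusted p = 0.12). Its intronic change was -2.30 ± 0.35 (limma adjusted p = 0.0144). Edn1, a vasoactive peptide, stood at -0.93 ± 0.23 in exonic and -2.18 ± 0.30 in intronic reads, and Ankrd1, a muscle ankyrin repeat protein, at -0.87 ± 0.18 and -1.69 ± 0.25. Without vector library 2, Ctgf, Edn1 and Ptgs2 no longer passed in intronic reads, at -2.01, -2.02 and -1.58. Of 16 measured immediate early genes Hbegf fell in exonic reads, where 0.0928% of all genes tested fell. Of 11 in intronic reads Hbegf, Ptgs2 and Klf6 (3) fell, with log2 changes of -2.48, -1.68 and -1.65. The list median there was -0.80, beside -0.14 in exonic reads.

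Signalling lists showed few calls in exonic reads. Of 19 Wnt pathway genes 0 passed in exonic reads, with a median of 0.39. In intronic reads, where 1.45% of all genes tested rose, Lgr6, Lgr4, Lrp5 and Tcf7l2 (4 of 17) rose, by 0.77 to 1.49. In the authors' deposited table the intronic adjusted p was 0.106, 0.019, 0.128 and 0.0648 for these 4 genes. Without Sox9 library 2 they stood at 1.18, 0.82, 0.82 and 0.78 and did not pass. The secreted Wnt inhibitor Frzb, at 2.83 ± 0.71 in exonic reads, did not pass by limma, and its adjusted p in the authors' deposited table was 0.688. Of 34 TGF-beta and BMP pathway genes 0 passed in exonic reads, with a median of 0.16. In intronic reads Ltbp2, which binds latent TGF-beta, rose by 0.91 and the BMP modulator Bmper fell by 1.33, but without Sox9 library 2 neither passed, at 0.88 and -1.07. Of 24 matrix proteases and inhibitors 0 passed in exonic reads, with a median of 0.02. The lists of FGF (12 measured), Notch (7), p53 (24), inflammatory (15), stress response (28), glycolysis (23), cholesterol synthesis (22), oxidative phosphorylation (48) and microRNA machinery genes (16) had 0 exonic calls. Of 42 replication and mitosis genes 0 passed, with a median of 0.04 and a range from -0.45 to 0.49. Of 16 interferon response genes 0 passed, 14 were lower and the median was -0.35. Of 48 ribosomal protein genes 0 passed, 45 were lower and the median was -0.23. Over all 9698 genes tested in exonic reads, 5066 were lower and 4632 higher. Mesenchymal stromal markers had a median of 0.32, with Ly6a farthest, at 2.45 ± 0.47 (limma adjusted p = 0.0984; 0.0236 in the authors' deposited table).

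Across all genes, limma called 53 in exonic reads (0.547%), of which 44 rose and 9 fell, and all 53 were at least 2-fold apart. By size alone 241 genes were at least 2-fold apart (2.49%), 173 higher (1.78%) and 68 lower (0.701%). The authors' deposited table had an adjusted p under 0.05 for 109 of the tested genes (1.12%), 51 of them also called by limma (0.526%). In 45.3% of tested genes the 2 libraries of a group lay beyond both of the other. In intronic reads limma called 166 (1.99%), 121 up and 45 down, and 190 genes were at least 2-fold apart (2.27%). Of the genes at least 2-fold apart that did not pass, the highest exonic changes were those of S100b, the calpain-like gene Capn6 at 2.97, Frzb, the imprinted gene Mest at 2.76 and Col3a1. Among the lowest were those of the virus receptor gene Cxadr at -4.51 (limma adjusted p = 0.0701; 2.6e-04 in the authors' deposited table), Igfbp4, the granzyme gene Gzme at -2.49 and Il1rn at -2.29. Without vector library 1, limma called 1292 exonic genes, and 52 of the 53 were among them.

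**Figure D3:**
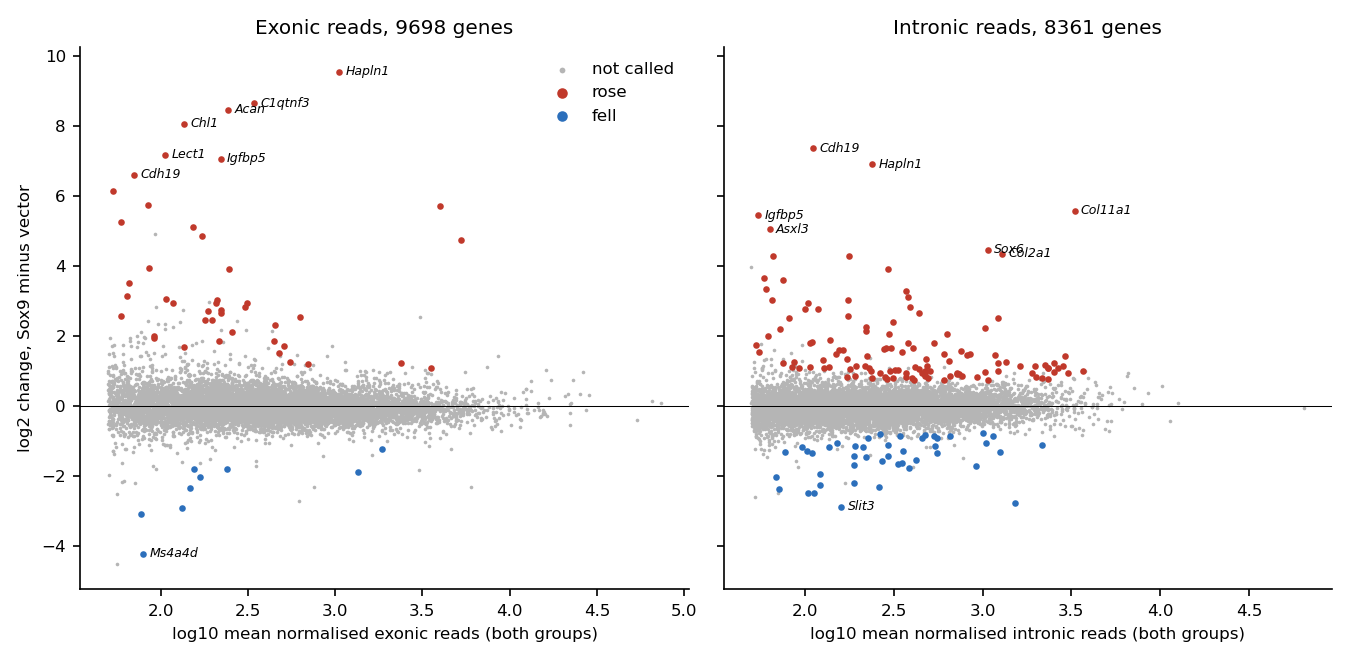
Each point is 1 gene, placed by the log10 of its mean normalised reads over both groups and by its limma log2 change (Sox9 minus vector), for exonic reads on the left and intronic reads on the right; red genes rose and blue genes fell. Rises reach 9.56 in exonic and 7.37 in intronic reads, while the lowest values are -4.51 and -2.87.

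Exonic and intronic changes went together. Over 7784 genes measured in both, the changes correlated with r = 0.832 and rho = 0.727, across genes, which are not independent replicates and whose 2 values come from the same libraries. Of the 53 exonic genes, 35 were measured in intronic reads. All 35 had the same sign there, and 31 were called in both. The exonic minus intronic difference was called for 1 of 7784 genes (0.0128%), Chl1, at 3.76 ± 0.27 (limma adjusted p = 0.00157), with 1045 genes at an unadjusted p under 0.05. Hapln1 had a difference of 2.64 ± 0.34 (limma adjusted p = 0.0703). Over both vector libraries Chl1 had 0 exonic reads and Hapln1 4, so the size of both differences depends on the pseudocount of 1. Col2a1 rose by 4.76 and 4.36, Col11a1 by 5.72 and 5.60, and Sox6 by 4.87 and 4.47 in exonic and intronic reads.

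**Figure D4:**
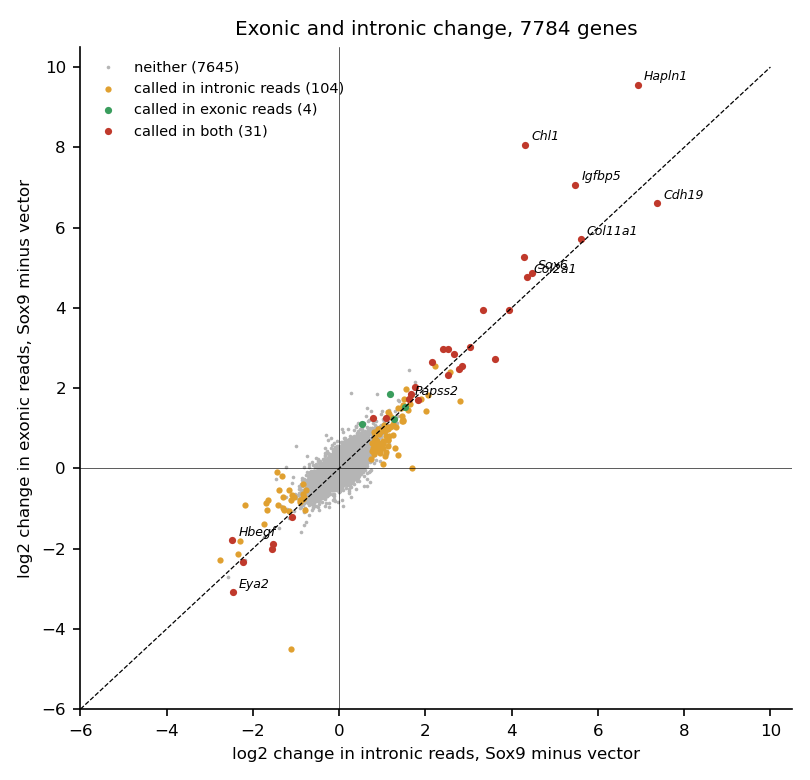
Each point is 1 of 7784 genes at its limma log2 change in intronic (x) and exonic (y) reads, Sox9 minus vector; the dashed line marks equal change, and colours mark genes called in 1, both or neither. The 31 genes called in both lie near the line, with Chl1 and Hapln1 above it.

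The same genes were read in cells given Pbx3 or Tead4, which share the vector libraries with the Sox9 comparison. In a fit of all 8 libraries, Hapln1 stood at 1.70 under Pbx3 and -1.43 under Tead4, Acan at 0.81 and 0.01, Col2a1 at -1.36 and -1.39, Col11a1 at 0.60 and 1.61, and Sox6 at 0.86 and -0.98. None of these passed for Pbx3 or Tead4, where this fit called 0.0309% and 0.825% of all genes. Sox9 cells were also tested against the mean of the Pbx3 and Tead4 cells in the same fit of 8 libraries. The vector level does not enter this difference, which uses the same Sox9 libraries. The vector libraries do enter its size factors, its error and the minimum mean, and so its p-values. This called 306 exonic genes (3.16%), and 48 of the 53 genes passed it in the same direction. Col2a1 was 6.14 ± 0.30 higher than in those cells, Hapln1 9.43 ± 0.41 and Acan 8.07 ± 0.86 (limma adjusted p = 1.6e-04, 1.6e-04 and 0.0061). Col27a1, which did not pass against vector, was 2.90 ± 0.32 higher (limma adjusted p = 0.00647), and it stood at -0.83 under Pbx3 and -2.27 under Tead4. Those that did not pass were Hhip, Sdpr, Igf2bp2, L1cam and Ms4a4d (5). Hhip had a change from vector of -2.90 under Sox9, -3.36 under Pbx3 and -5.49 under Tead4, and Sdpr, with -1.77, -2.09 and -1.95, was also lower in all 3. In the fit of 8 libraries neither Hhip nor Sdpr passed for Sox9 against vector (limma adjusted p = 0.0721 and 0.14). Igf2bp2, an RNA-binding protein gene, stood at 2.48, 0.93 and 2.87. Lama4 and Itm2a went in opposite directions under Sox9 and Tead4, at 2.55 and -3.92 and at 2.96 and -5.16, and both passed for Tead4 in this fit. Lama4 did not pass there for Sox9 against vector (limma adjusted p = 0.0516). In intronic reads 142 of 166 called genes passed the same direct test, which called 6.81% of all genes. Without Sox9 library 1 or 2, the direct test called 5 and 7 of the named exonic genes in place of 27 of 30.

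**Figure D5:**
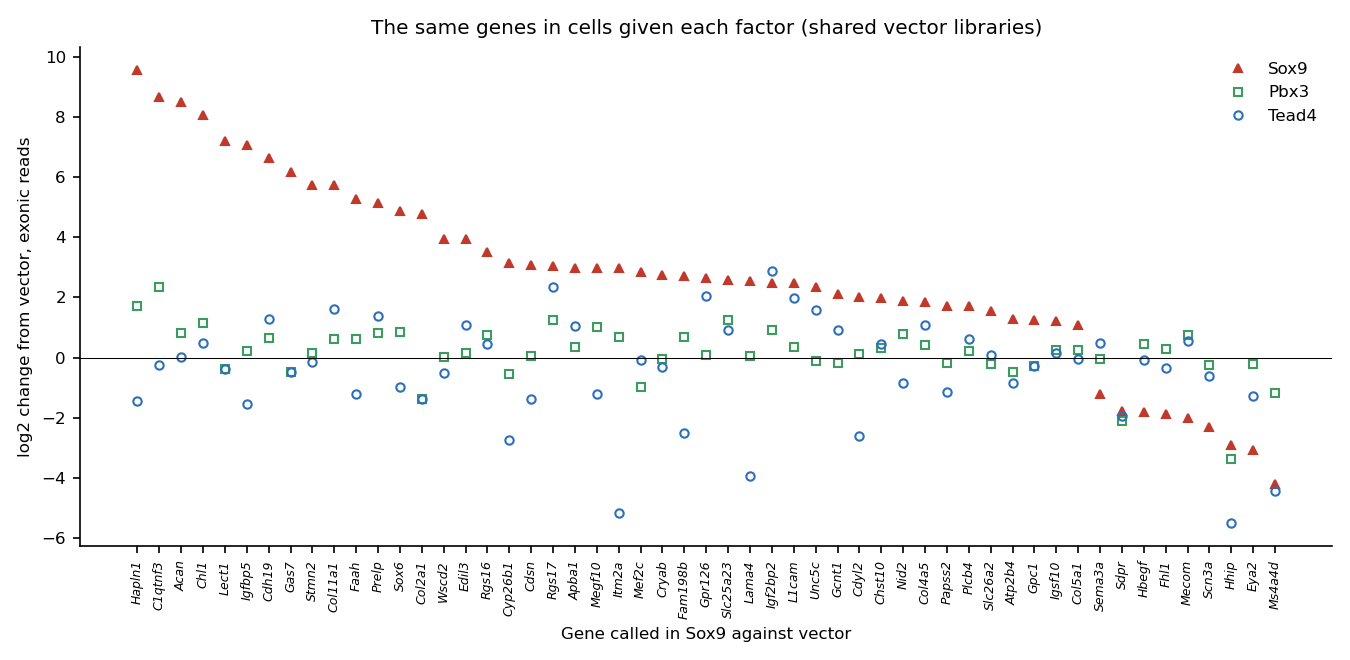
Each column is 1 of the 53 genes called in exonic reads of Sox9 against vector, with its log2 change from vector in cells given Sox9 (triangles), Pbx3 (squares) or Tead4 (circles), from 1 fit of 8 libraries that share the vector. Hapln1, Acan and Col2a1 are highest under Sox9, while Hhip and Sdpr are low under all 3.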

How the data were processed

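Per the labels' protocols, strand-specific single-end libraries were made from total RNA after removal of ribosomal RNA. The submitters' processing notes name Bowtie2, mm9 and DESeq 1.10.1; annotation and counting rules were not found in the sources used. The deposited signal columns are group means of exonic or intronic reads per gene divided by size factors, the deposited fold column is their ratio, the deposited log2 column is its log2, and the deposited p-value columns are the authors' test.

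The labels list 1 sample per group, yet each deposited mean resolved uniquely into whole reads of 2 libraries (100% of genes, tolerance 1e-09); whether these are separate cultures is not stated, so p-values measure only the spread between libraries, which may be technical. The main test was limma (version 3.58.1, R 4.3.3) on log2(normalised reads + 1), trend included, 2 libraries against 2, mean of both groups at least 50, Benjamini-Hochberg adjustment over all genes tested, threshold 0.05. Size rule: log2 of the ratio of the means plus 1, at least 2-fold. Exonic library 1 was joined to intronic library 1 of the same group, since their differences from library 2 correlated across genes (r = 0.79 in vector, 0.66 in Sox9). The scripts were tested on simulated data. Floors are 3 reads over a group; floors and intervals cover counting error only. The minimum takes the mean of both groups, so a gene near 0 in one group can enter through the other.

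Members, the 39 gene lists and their tests were chosen with earlier results of these data known. Named genes were Sox9, the 12 highest and 12 lowest called exonic genes, the 6 highest and lowest called intronic genes, the called genes and up to 5 uncalled at each end in the other comparisons, list members that were called or among the 3 largest changes of a list, and the Sox, cartilage matrix and regulator lists; others are said to be chosen after their values were seen. Alternatives were other pseudocounts, minimum means, scalings (TMM factors), fits and left-out libraries. Results of some genes that the rule names are not reported here.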

Additional observations from a re-analysis of the deposited data

How the results depend on the processing

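The 53 exonic calls became 105 at a minimum mean of 10, 23 at 200, 165 without a minimum, 109 by the authors' adjusted p and 78 to 1292 with 1 library left out. The 241 exonic genes at least 2-fold apart became 515, 94 and 1273 at those minima, 945 at 1.5-fold and 230 to 508 with 1 library left out. Intronic calls, 166, became 262 without a minimum and 113 to 385 with 1 library left out; the 190 intronic genes at least 2-fold apart became 455, 84, 1558, 802 at 1.5-fold and 205 to 314. The exonic minus intronic call became 0 at a minimum of 200 and 20 to 76 with 1 library left out, and the direct test of named genes called 5 to 26 of 30 exonic and 23 to 42 of 47 intronic genes. Exonic calls were 44 up and 9 down, against 731 and 561 without vector library 1, 138 and 92 without vector library 2 and 48 and 30 without Sox9 library 1.

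The labels give no replicate numbers. As a hint from the data, libraries of different groups were matched by the sign of the correlation of their differences and used as a replicate block. With it limma called 1790 exonic genes (1250 in a joint fit of 4 groups), 1558 intronic genes (1213 jointly) and 309 exonic minus intronic differences. The Sox9 gene then passed, at 1.29 (1.29 jointly). The match was taken from these same reads, so it lowers the residual spread partly by construction. These counts and the pass of the Sox9 gene are therefore no independent support. Without the block, the change of the Sox9 gene ranged from 0.66 to 1.92 with 1 library left out. The correlation of library 1 minus library 2 between vector and Sox9 was 0.57 in exonic and 0.45 in intronic reads. The cause was not tested.

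List medians moved with the minimum for cartilage matrix genes (2.84 at 10, 3.45 at 200; intronic 4.36 at 200), immediate early genes (-0.35 at 200) and interferon genes (-0.54 at 10, -0.23 at 200). With 1 library left out, medians ranged from 1.82 to 3.29 for cartilage matrix (intronic 1.33 to 1.96), -0.41 to 0.47 for osteoblast, -0.17 to 0.23 for adipocyte, 0.031 to 0.49 for contractile, 0.13 to 0.72 for fibrillar matrix, 0.59 to 1.05 for basement membrane (intronic 0.36 to 0.68), -0.50 to -0.29 for interferon, -0.304 to -0.17 for ribosomal protein, -0.49 to 0.605 for tendon, 0.19 to 1.82 for small leucine-rich proteoglycan, 0.039 to 0.47 for hypertrophic cartilage, 0.16 to 0.65 for Wnt pathway, -0.29 to 0.39 for matrix protease and -0.19 to 0.39 for Eph, ephrin, semaphorin and Slit genes. Of 77 exonic or intronic changes of named genes, 0 reversed in any alternative run; 10 lost the call with TMM factors, 14 in the joint fit, 14 without the trend, 7 with voom weights (added after the data were seen, like the joint fit with block), 8 by the authors' adjusted p, and 2 to 11 with 1 library left out. With TMM factors Papss2, Nid2, Mecom and Col5a1 lost the exonic call (limma adjusted p of 0.051 to 0.062). Count-based alternatives were not run, although whole reads were recovered from the deposited group means of normalised reads. Genes under a mean of 50 normalised reads were left out of the main limma test and entered only the runs at a lower minimum or without one.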

Other observations

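Genes under the minimum mean of 50 were not in the main limma test. Of these, 58 had an adjusted p under 0.05 in the authors' deposited table of exonic reads, 46 higher and 12 lower in Sox9 cells. The genes named here were chosen after their values were seen, and their reads are totals over the 2 libraries of a group. Several are known from Schwann cells and other glia and had 0 reads in vector. Mal, a membrane proteolipid of myelin, had 149 reads in Sox9 cells, at least 69.5-fold higher against a floor of 3 reads in the vector group. Ngfr, the low-affinity neurotrophin receptor of neural crest and Schwann cells, had 72 reads, at least 33.6-fold higher. Pmp2, a lipid carrier of peripheral myelin, had 29 and Gjc3, a glial connexin, 28. Sh3tc2, a Schwann cell adaptor, had 1 read in vector and 56 in Sox9 cells, a ratio of 78.4 with a 95% exact counting interval of 13.5 to 3152. Mbp, a further myelin gene, had 10 and 39 reads and is not among the 58. In Pbx3 cells Mal, Ngfr, Pmp2, Gjc3 and Sh3tc2 had 0 reads in both libraries, and in Tead4 cells Mal had 0 and 1 and Pmp2 3 and 4.

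Other genes of this kind encode regulators. Prkcq, a protein kinase C, went from 0 to 143 reads, at least 66.7-fold, and Sim2, a transcription factor, from 2 to 109, a ratio of 76.3 with an interval of 20.6 to 638. Its relative Sim1 went the other way, from 113 reads in vector to 1 in Sox9 cells, a ratio of 0.0124 with an interval of 3.1e-04 to 0.0705. Sim1 had 2 and 5 reads in the Pbx3 libraries and 0 and 0 in the Tead4 libraries, so it was low in all 3 against the shared vector. Vit, a matrix protein gene, went from 92 reads to 0, at least 21.9-fold lower, and Mcpt8, a mast cell protease gene, from 55 to 0, at least 13.1-fold lower. Stc1, the stanniocalcin gene, had 130 and 4 reads, and Hey2, a Notch target, 145 and 11. Some of these were also low under another factor. By library, Mcpt8 had 1 and 0 reads in Pbx3 and 18 and 5 in Tead4 cells. Stc1 had 36 and 50 in Pbx3 and 1 and 0 in Tead4 cells. Vit had 9 and 12 in Pbx3 and 35 and 49 in Tead4 cells, and Hey2 80 and 57 and 41 and 34.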
